A study of Enchytraeus albidus with 21 samples.

Results

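Whole-body transcript levels of Enchytraeus albidus were compared between worms that had spent 8 days in uncontaminated control soil and worms that had spent 2 days in it. Both groups belong to experiment 2, were titled as controls and carried 4 arrays each, which makes 8 of the 21 arrays of the series. All were taken by their sample titles. Arrays 2 and 4 of the 2-day group were nearly identical and were averaged, so 3 samples at 2 days stood against 4 at 8 days, 7 of the 20 samples of the series after averaging. Each sample held 10 adult worms with a developed clitellum, kept in 25 g of moist soil at 20 °C under a cycle of 16 h light and 8 h dark. Neither group received acetone or any test substance, and the labels give no strain. RNA (0.5 µg) was labelled with Cy3 and hybridised to a single-colour array. The 4 samples taken after 4 days in the same soil shared the statistical fit. The design text names the question as the effect of exposure time under control conditions.

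Enchytraeus albidus, the white potworm, is a segmented worm related to earthworms. It lives in soil and decaying plant matter and is a test species of soil ecotoxicology. The clitellum is the glandular band that secretes the cocoon of mature worms, so all samples came from reproductive adults. In such tests a treated group is read against a control kept for the same time, and the spread between control replicates bears on how large a difference must be to be seen. Whole bodies mix gut, body wall, nervous and reproductive tissue. In such extracts, fewer cells of a type and less RNA per cell cannot be told apart.

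The array carried 1035 worm probes in 14 or 15 spots each. The files do not pair the probes with genes or with sequences, so probes are given by identifier and no function can be stated for any of them. A level is the mean log2 processed signal of a probe's spots minus the 75th percentile of that array's worm spots, so a level of 0 is the brightness at that percentile. A difference of 1 on this scale is a fold of 2. The test took in the 859 of the 1035 probes that, at 1 or more of the 3 time points, gave a signal well above background on all arrays.

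The arrays differed in brightness within both groups. The signal at the 75th percentile was 868, 2570, 1150 and 1760 on 2-day arrays 1 to 4 and 2260, 1392, 973 and 2850 on 8-day arrays 1 to 4. The number of probes well above background was 854 to 912 at 2 days. At 8 days it was 912, 902 and 919 on replicates 1, 2 and 4, but 669 on replicate 3. On that array the dimmest probe still well above background lay at a level of −4.19, so lower levels of 8-day replicate 3 carry little information. In all, 840 probes were well above background on every 2-day array and 665 on every 8-day array, or 884 without 8-day replicate 3. Spots of 1 probe agreed closely: their median SD was 0.0574 to 0.122 on the log2 scale.

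Before averaging, 2-day arrays 2 and 4 differed by a scaled median absolute deviation of 0.0717, and 0 probes differed by more than 2-fold between them. The other 27 pairs among the 8 arrays differed by 0.446 to 1.35. The near-identical arrays lay on different slides and scan days. Among the 7 samples, 2-day samples differed from each other by 0.446 to 1.20 (3 pairs), 8-day samples by 0.562 to 1.27 (6 pairs, median 0.887), and samples of different time points by 0.700 to 1.36 (12 pairs, median 0.892). Over all pairs, samples 6 days apart thus differed about as much as 8-day replicates differed from each other. This likeness depended on 8-day replicate 3. The 8-day pairs with it differed by 0.986 to 1.27 and those without it by 0.562 to 0.789. Pairs of different time points without it differed by 0.700 to 1.095, mostly more than the 8-day pairs without it.

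The first principal component over the 859 probes, with 53.3% of the variance, did not follow exposure time. It placed 2-day replicates 1 and 3 at 16.0 and 17.1 with 8-day replicate 3 at 25.5. The averaged 2-day pair lay at −18.7, among 8-day replicates 2 and 4 at −16.6 and −16.4, and 8-day replicate 1 lay at −6.89. The 3 samples on the positive side were those with the lowest signal at the 75th percentile. How much of this component comes from array brightness was not tested. The second component, with 20.8%, held the 2-day samples at −12.1 to −7.93 and the 8-day samples at −3.51 to 19.7, without overlap. The 8-day replicates 1 and 2, scanned on the same day, lay at −3.51 and −0.89. Replicates 3 and 4, scanned together on another day, lay at 12.7 and 19.7. No scan day held both 2-day and 8-day arrays, so scan day and exposure time cannot be told apart on this component.

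**Figure D1:**
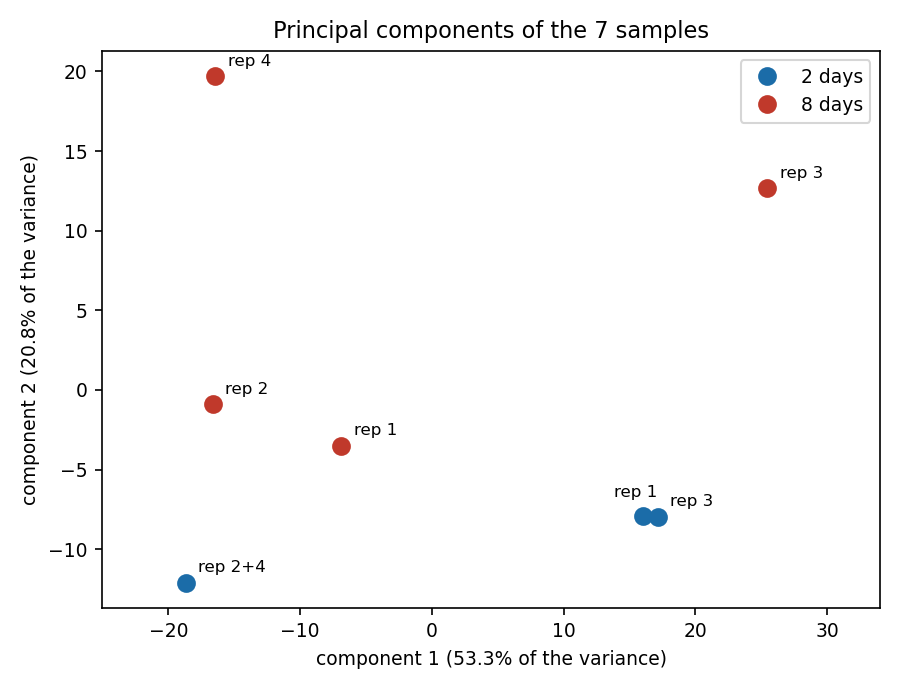
The 7 samples on the first principal component (horizontal axis, 53.3% of variance) and the second (vertical axis, 20.8%) of the log2 levels of 859 probes, with colour for time in soil. On the horizontal axis 2-day replicates 1 and 3 lie with 8-day replicate 3, and on the vertical axis all 2-day samples lie below all 8-day samples. No scan day held arrays of both time points.

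Between 8 and 2 days, no probe passed the test at an adjusted p of 0.05 (limma with Benjamini-Hochberg adjustment, 0 of 859 probes, 0%; smallest adjusted p = 0.259). An unadjusted p under 0.05 was reached by 42 probes (4.89%), 29 of them higher at 8 days (3.38%) and 13 lower (1.51%). The median difference, 8 minus 2 days, was −0.16, with quartiles of −0.48 and 0.15, and 530 probes lay below 0 against 329 above. Differences were above 1 for 36 probes (4.19%) and below −1 for 48 (5.59%). The precision was limited: the median standard error was 0.48, and the 95% interval of a typical probe reached 2.07-fold to either side. The interval lay wholly within a 2-fold change in either direction for 115 probes and within a 4-fold change for 623. For the other 236 probes a change of 4-fold or more lay inside the interval. A missed test does not show, for these or for other probes, that levels were the same.

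Without a test passed, the probes can be described by whether all samples of one time point lay above all samples of the other. This held for 78 of the 859 probes (9.08%), of which 29 were higher at 8 days (3.38%) and 49 lower (5.7%). For samples in random order, the 35 splits of 3 against 4 samples give a share of 0.0286 in each direction. The probes of an array are not independent, so the counts were not tested against that share. The direction varied with how bright a probe was. The 859 probes were divided into 4 classes of equal size by mean level over the 11 samples. In the brightest class (215 probes, levels of 0.72 to 5.64) the median difference was −0.33, and 26 probes (12.1%) were lower at 8 days without overlap against 2 higher. In the next class (214 probes) the median was −0.18, with 14 lower and 5 higher. Levels of −4.55 to −2.58 (215 probes) had a median of −0.12 and the opposite balance, with 16 higher and 4 lower. The dimmest class (215 probes) had a median of −0.02, with 6 higher and 5 lower. Saturated spots were kept (13 to 48 probes per array), and the arrays differed in brightness. How far either bears on the brightest class was not tested.

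The slope of the medians with brightness depended on the scaling of the arrays. With each array centred on its median, the medians from brightest to dimmest class were −0.28, −0.13, −0.07 and 0.04. Such centring moves all probes of an array by the same amount, so it could not change the slope. After quantile normalization the medians of the classes, from brightest to dimmest, were −0.03, −0.08, −0.0033 and −0.22. Probes without overlap were then 24 higher and 22 lower, of which 16 and 15 were among those of the 75th percentile scaling. In the brightest class 12 probes were lower and 3 higher, and in the class of levels from −4.55 to −2.58 1 was lower and 13 higher. With the authors' own values the median difference of the brightest class was 0.0005. The brightest class thus held more probes lower than higher without overlap in both scalings where these were counted, 26 against 2 and 12 against 3, while its median difference was near 0 with quantile normalization and with the authors' values. The median level of a sample averaged −2.30 ± 0.32 (SD, n = 3) in the 2-day and −2.40 ± 0.35 (SD, n = 4) in the 8-day samples and did not differ detectably (two-sided exact permutation test, p = 0.686; the smallest p of its 35 splits is 0.0286).

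**Figure D2:**
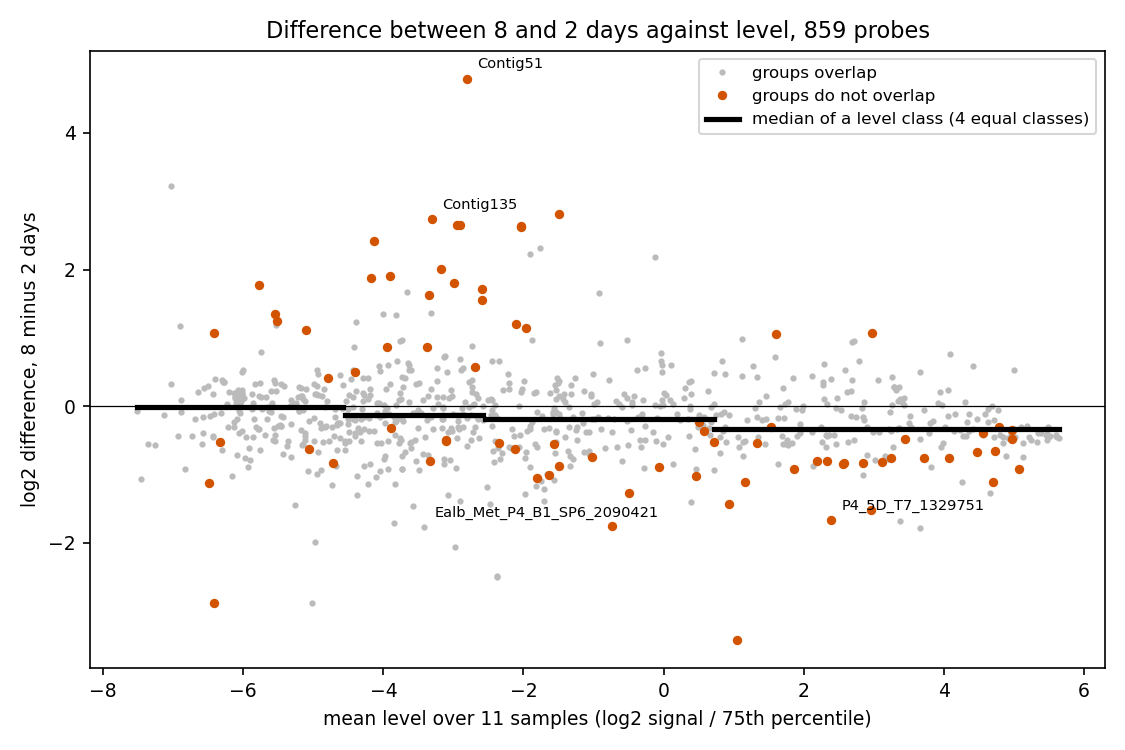
Log2 difference between 8 and 2 days (vertical axis) against the mean log2 level over 11 samples (horizontal axis) for the 859 tested probes. Orange points are the 78 probes whose 2 groups of samples do not overlap and black marks are the medians of the 4 level classes, which fall from −0.02 to −0.33 with rising level.

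Contig51 showed the largest difference between the time points. Its level was −3.93, −6.00 and −4.76 in the 2-day samples (replicate 1, the averaged pair, replicate 3). In the 8-day samples it was −1.08, 1.78, −2.09 and 0.99. All 8-day samples lay above all 2-day samples, and the 4-day samples, at −5.81, −3.40, −3.40 and −3.14, lay within or just above the 2-day range. Its 2-day mean was −4.90 ± 1.04 (SD, n = 3) and its 8-day mean −0.10 ± 1.79 (SD, n = 4). The difference of 4.79 ± 0.96 (SE) is a fold of 27.7, with a 95% interval of 6.48 to 119, and did not pass the test (limma, adjusted p = 0.259). Contig51 was well above background on all 8 arrays, and the SD of its spots on an array was 0.0442 to 0.113. In experiment 1 it was near background: its mean level was −7.34 in worms from culture, −8.19 in water controls and −8.45 with acetone, and at most 1 of 3 arrays of a group was well above background. Its 2-day levels in the 2 experiments came from separate vessels and hybridisations.

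Contig135 differed less but with a far smaller spread. Its level was −4.24, −3.73 and −4.30 at 2 days, −6.08, −4.12, −3.14 and −5.41 at 4 days, and −1.42, −1.60, −1.57 and −0.81 at 8 days. The 8-day samples spanned 0.79 and lay above every 2-day and 4-day sample. The difference of 2.74 ± 0.60 (SE) is a fold of 6.67, with a 95% interval of 2.68 to 16.6, and did not pass (limma, adjusted p = 0.259). The SD between samples of Contig135 was 0.31 at 2 days and 0.37 at 8 days, against 1.31 at 4 days, and the fit shares 1 spread over the 3 time points. Fitted without the 4-day samples, the same difference had a standard error of 0.33 and an adjusted p of 0.0332 (limma).

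Besides Contig135, this narrower fit called 4 probes, Ealb_Pest_P6_F12_SP6_2092122, Ealb_Pest_P6_H1_SP6_2092020, Ealb_Pest_P7_C2_SP6_2092135 and Ealb_Pest_P9_F6_SP6_2091032, each at an adjusted p of 0.0414 (limma, 5 of 859 probes, 0.582%, all higher at 8 days). The 5 calls rested on every sample except the averaged pair. Leaving out any other of the 7 samples ended all 5 calls (smallest adjusted p of 0.0602 to 0.291), and without the averaged pair 8 probes passed, these 5 among them. Contig167, chosen after its values were seen because it followed the 5 probes, was at an adjusted p of 0.0547 in the narrower fit (limma).

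The 6 probes did not vary independently. Over the 11 samples of experiment 2 their levels were correlated pair by pair at r = 0.977 to 1.00, and at 0.885 to 1.00 after the mean of each time point was removed. The closest pair, Ealb_Pest_P6_H1_SP6_2092020 and Ealb_Pest_P7_C2_SP6_2092135, differed by at most 0.0364 in any sample. Whether these probes read 1 transcript or several is not known from the files, so the 6 probes are not 6 separate results. Their differences between 8 and 2 days were 2.62 to 2.81 in the fit of 3 time points, with adjusted p-values of 0.259 to 0.331 (limma).

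Of the 6 probes, Ealb_Pest_P6_F12_SP6_2092122 had the largest difference. It was at −2.71, −1.65 and −2.48 at 2 days, −4.46, −2.41, −1.23 and −3.56 at 4 days, and 0.00, 0.74, 0.22 and 1.13 at 8 days. All 8-day samples lay above all earlier ones. The difference was 2.81 ± 0.66 (SE), a fold of 7.0 (limma, adjusted p = 0.259). Averaged over the 6 probes, the level was −3.63, −2.52 and −3.46 at 2 days, −5.34, −3.29, −2.13 and −4.55 at 4 days, and −0.87, −0.33, −0.80 and −0.06 at 8 days. The 4 samples at 8 days spanned 0.81 and those at 4 days 3.21.

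**Figure D3:**
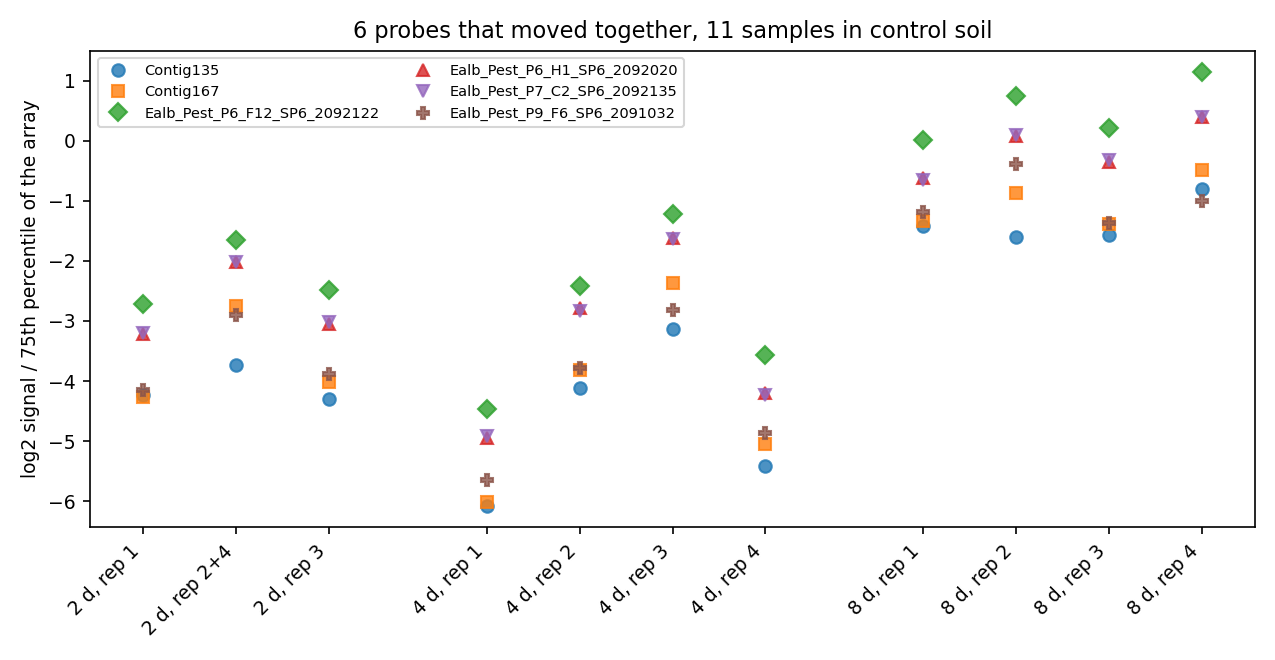
Log2 level (vertical axis) of the 6 probes that moved together, in the 11 samples of experiment 2 (horizontal axis, grouped by time in soil), with 1 colour per probe. The probes rise and dip together from sample to sample, and for each probe all 8-day samples lie above all earlier ones.

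The same 6 probes also differed among groups of experiment 1. Their mean level was 1.55, 0.08 and 0.75 in the acetone samples, −1.92, −4.12 and −5.74 in the 2-day water controls, and −4.46, −4.37 and −4.75 in worms from culture. On this mean the 8-day controls lay between the water controls and the acetone samples of experiment 1, with no overlap with either. The gap to the acetone samples was narrow, from −0.06 to 0.08. For Contig135 acetone replicate 2, at −1.58, lay inside the 8-day range of −1.60 to −0.81. For Contig167 it also did, at −0.58 in a range of −1.38 to −0.49. By the file headers, 8-day arrays 3 and 4 were scanned on the same day as acetone arrays 2 and 3, and 8-day array 3 shared a slide with acetone array 3. The 8-day arrays 1 and 2 and acetone array 1 were scanned on other days and were at −0.87, −0.33 and 1.55. No scan day held both 2-day and 8-day arrays, so scan day and exposure time cannot be told apart within a day.

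Contig51 was correlated with this set over the 11 samples. The probes most like it were Ealb_Pest_P6_F12_SP6_2092122 (r = 0.82), Ealb_Pest_P9_F6_SP6_2091032 (r = 0.81) and Contig135 (r = 0.80). These samples share the time points and their scan days, and the likeness did not extend to the acetone samples. There the 6 probes were at their highest mean, while Contig51 was well above background on 0 of 3 arrays. Its mean in those samples therefore bounds its level rather than measuring it.

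Another 3 probes, Contig8, Contig119 and Ealb_Met_P7_C1_SP6_2090602, moved together at r = 0.977 to 0.994 over the 11 samples and were chosen after their values were seen. Their mean level was −1.95, −0.11 and −0.84 at 2 days and −0.74, 2.85, 1.65 and 1.33 at 8 days, with 8-day replicate 1 inside the 2-day range. At 4 days 3 samples lay between −6.21 and −5.09 and replicate 3 lay at 0.34. Their differences of 2.18 to 2.32 did not pass (limma, adjusted p = 0.984 for each). In experiment 1 they were at 3.25 to 3.34 in the acetone samples, −4.38 to −3.67 in worms from culture, and 0.65, −4.17 and −5.21 in the water controls. The water control and 4-day groups each held 1 sample that stood far above the others for these probes, and for the 6 probes above the highest sample of those groups was the same one.

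P5_A4_T7_1329813, chosen after its values were seen, was low at 2 days rather than high at 8 days. Its level was −5.28, −4.26 and −5.38 at 2 days, −1.92, −1.06, −2.87 and −2.27 at 4 days, and −2.63, −2.43, −3.49 and −3.33 at 8 days. All 4-day and 8-day samples lay above all 2-day samples. The difference of 2.01 ± 0.48 (SE) is a fold of 4.02 and did not pass (limma, adjusted p = 0.259). With normexp background correction it was 1.14. In experiment 1 its group means were −1.66 to −0.35, all above the 2-day samples of experiment 2.

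The probes with the smallest unadjusted p in the downward direction were Ealb_Met_P4_B1_SP6_2090421 and P4_5D_T7_1329751. Ealb_Met_P4_B1_SP6_2090421 was at −2.93, −2.04 and −3.58 at 2 days and at −4.96, −5.70, −3.52 and −4.29 at 8 days. The 8-day replicate 3 lay inside the 2-day range, and the 4-day samples, at −3.04 to −2.32, did as well. The 2-day mean was −2.85 ± 0.77 (SD, n = 3) and the 8-day mean −4.62 ± 0.93 (SD, n = 4). At 8 days the probe was thus 3.41-fold lower (difference −1.77 ± 0.53, SE), and this did not pass (limma, adjusted p = 0.454). With normexp background correction the difference was −1.13. In experiment 1 its means were −2.03 in culture, −2.78 in water controls and −3.04 with acetone, all above the 8-day mean.

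P4_5D_T7_1329751 was a bright probe, at 2.78, 4.39 and 2.57 at 2 days, 2.14, 2.12, 3.61 and 2.46 at 4 days, and 1.56, 2.19, 1.27 and 1.26 at 8 days. The 8-day samples lay below the 2-day samples, and 8-day replicate 2 lay above the 2 lowest 4-day samples. The difference of −1.67 ± 0.52 (SE), 3.19-fold lower, did not pass (limma, adjusted p = 0.473). The averaged 2-day pair was its highest sample, and without it the difference was −1.10. In experiment 1 its group means were 2.46 to 2.99.

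Ealb_Met_P3_F12_SP6_2090417, named after its values were seen, had the most negative difference of all tested probes. Its level was 6.03, 4.95 and 4.98 at 2 days, −4.66, −3.49, −5.50 and 1.73 at 4 days, and 4.85, 2.44, 2.52 and −2.23 at 8 days. The 2-day samples lay above all later ones, and 8-day replicate 1 came within 0.11 of them. The means at 2, 4 and 8 days were 5.32 ± 0.62 (SD, n = 3), −2.98 ± 3.25 (SD, n = 4) and 1.89 ± 2.97 (SD, n = 4). The difference between 8 and 2 days of −3.42 ± 1.76 (SE; 95% interval −7.28 to 0.44) did not pass (limma, adjusted p = 0.984), and without 8-day replicate 4 it was −2.05. The probe was well above background on every one of these arrays, with spot SDs of 0.0343 to 0.158. In the 3 groups of experiment 1 its means were 4.73 to 4.84, near the 2-day level. Its later samples thus spread over 10.4 on the log2 scale, against 1.08 for the 2-day samples.

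**Figure D4:**
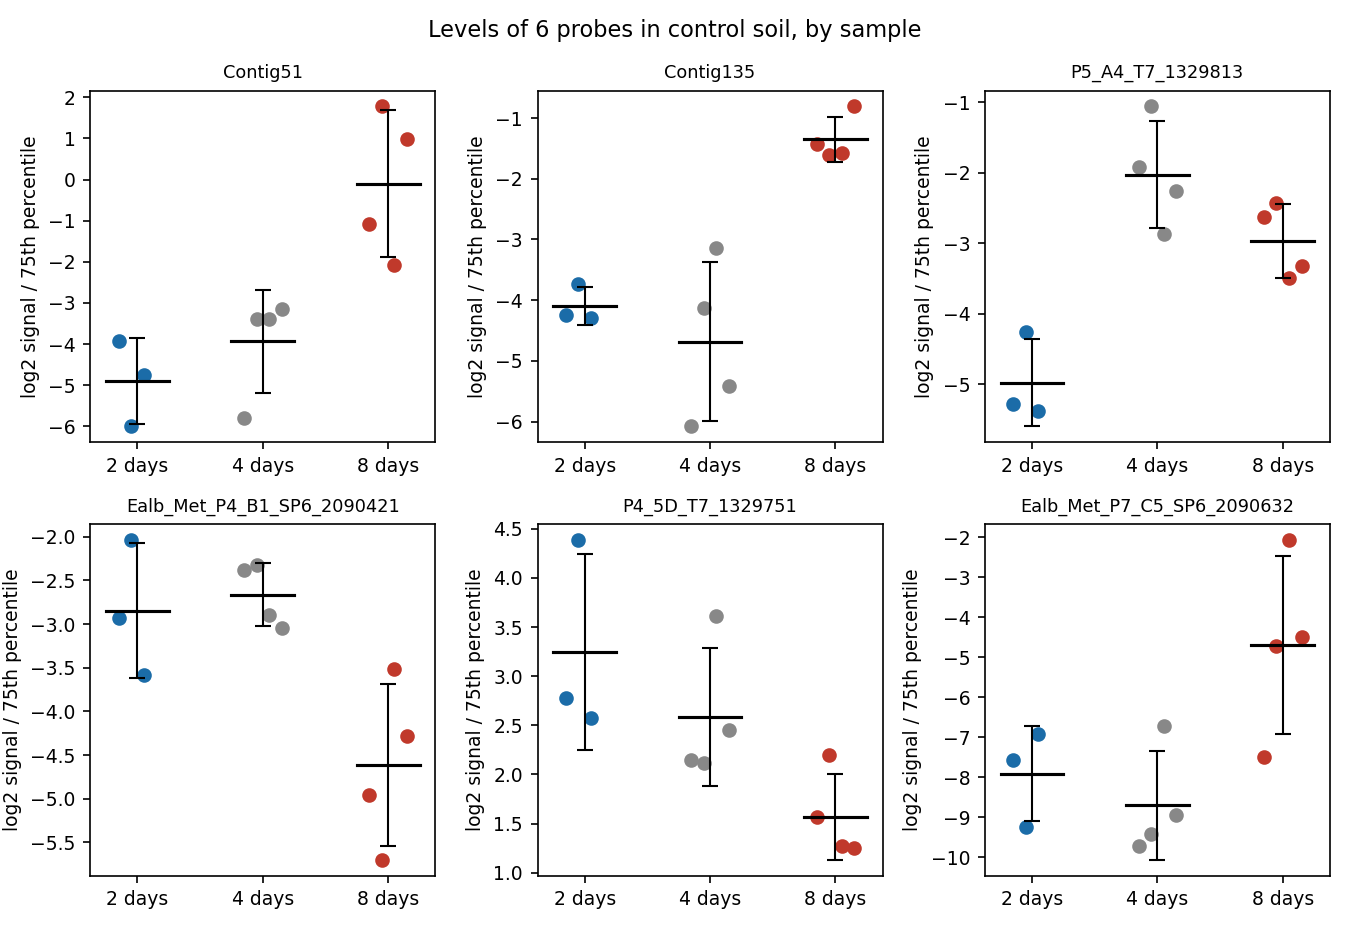
Log2 level (vertical axis) of 6 named probes in the samples at 2, 4 and 8 days in control soil (horizontal axis). Points are samples (3, 4 and 4), lines are means and bars are SDs. Contig51 and Contig135 are highest at 8 days, P5_A4_T7_1329813 is lowest at 2 days, and Ealb_Met_P4_B1_SP6_2090421 and P4_5D_T7_1329751 have their lowest means at 8 days.

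A single probe, Ealb_Met_P7_C5_SP6_2090632, was well above background on all 4 arrays of 8 days and on none of the 4 arrays of 2 days, and 0 probes showed the reverse. Its measured level was −7.57, −9.23 and −6.93 at 2 days and −7.48, −4.71, −2.06 and −4.50 at 8 days, so that 8-day replicate 1 overlapped the 2-day samples. Set against the lowest signal that is well above background, it was at least 6.73-fold higher at 8 days (measured means −4.69 and −7.91), and the difference did not pass (limma, adjusted p = 0.624). The value of 6.73 also belongs to the 75th percentile scaling of all samples. The fitted difference of 3.22 was 0.88 with normexp background correction, 1.41 with array weights and 2.35 without 8-day replicate 3. The probe was well above background on 0 of 4 arrays at 4 days, so it entered the test only through the 8-day group, where it was high. In experiment 1 it was so on 3 of 3 arrays with acetone, 1 of 3 water control arrays and 0 of 3 culture arrays.

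A probe outside the test, Ealb_Met_P2_C10_SP6_2090305, was the only call when dim probes were not left out, and was named for that after its values were seen. It was at −8.23, −8.78 and −8.43 at 2 days, well above background on 1 of 4 arrays, and at −6.55, −5.17, −6.20 and −5.52 at 8 days, well above background on 3 of 4. Without the filter the difference was 2.63 ± 0.40 (SE; limma, adjusted p = 0.0339). Its 2-day value rests on signals not well above background and bounds the level there rather than measuring it.

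The place of the 4-day samples was counted for the probes without overlap, which were picked by their 2-day and 8-day values. No such count was made over all 859 probes or in another scaling. The sample medians were −2.93 to −2.35 at 4 days, −2.66 to −2.07 at 2 days and −2.69 to −1.90 at 8 days. How far this bears on the balance between the directions was not tested. Of the 29 probes higher at 8 days without overlap, the 4-day mean of 9 lay between the means of 2 and 8 days. It lay beyond the 8-day mean for 13 and beyond the 2-day mean on the other side for 7. Most of the 49 probes lower without overlap lay in between at 4 days: 33 had a 4-day mean between the others, 8 beyond 8 days and 8 beyond 2 days. The 4-day mean of Contig135, at −4.69, lay below its 2-day mean of −4.09, and that of P5_A4_T7_1329813, at −2.03, lay above its 8-day mean of −2.97.

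Samples of 1 time point differed widely for some probes. The median SD between samples was 0.585 at 2 days (n = 3) and 0.519 at 8 days (n = 4), and the SD was above 1 for 164 probes at 2 days and 206 at 8 days. Without the averaged pair the 2-day median SD was 0.215, and without replicate 3 the 8-day median SD was 0.372. In each group 1 sample therefore set much of the spread against which the time points were tested. A fit with array weights, which were lowest for these 2 samples and for 4-day replicates 1 and 2, called 164 probes (limma, 19.1% of 859; 48 higher, 5.59%, and 116 lower, 13.5%). Of the 164 only 32 had groups without overlap.

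The widest spread at 2 days was that of P3_5D_T7_1329685, at −7.61, −0.03 and 0.63 (SD 4.57), and of Ealb_Pest_P3_H7_T7_2175129, at −8.40, −1.48 and −0.90 (SD 4.17). For both, replicate 1 was the low sample and lay under the lowest level well above background on that array, −7.38. At 8 days replicate 1 was again the lowest, at −7.45 for P3_5D_T7_1329685, where the others were −2.20, −3.40 and −2.03, and at −7.68 for Ealb_Pest_P3_H7_T7_2175129, where the others were −4.34, −4.74 and −3.46. The replicate numbers mark no shared vessel or day in the labels. At 8 days the spread was widest for P2_F8_T7_1328946, at −9.74, −3.49, −2.27 and −7.92 (SD 3.55), and for Contig129, at −1.79, −2.93, 4.22 and −0.37 (SD 3.14). P2_F8_T7_1328946 was well above background on 3 of 4 8-day arrays, and Ealb_Pest_P3_H7_T7_2175129 on 2 of 4. Apart from that of Contig129, the SDs named here thus rest partly on signals not well above background. For Contig129, 2-day levels of 0.20, −2.98 and −0.20 lay inside the 8-day range, while SDs in the groups of experiment 1 were 0.20 to 0.55.

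The identifiers fall into 4 forms, whose meaning the files do not spell out, and none held a call. The median difference was −0.32 for the 152 tested contig probes, −0.24 for 288 with Met, 0.02 for 162 with Pest and −0.06 for 257 with a plate position alone, beside −0.16 for all tested probes. Of all tested probes 3.38% were higher and 5.7% lower at 8 days without overlap. These shares were 1.97% (3 probes) and 3.29% (5) for contig probes, and 1.74% (5) and 6.25% (18) for those with Met. They were 3.09% (5) and 3.09% (5) with Pest, and 6.23% (16) and 8.17% (21) with a plate position. The median SD between samples of contig probes was 0.844 at 8 days and 0.666 at 2 days, the highest of the 4 forms. It was 0.637 and 0.625 with Met, 0.453 and 0.603 with Pest, and 0.400 and 0.427 with a plate position. At 2 days the contig, Met and Pest values were thus close. No test was made of these classes.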

How the data were processed

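Scanner files were deposited for every array. Spot intensities were made by the authors with Agilent Feature Extraction 10.5.1.1, per the file headers of the 8 arrays compared and the submitters' processing notes; 4-day arrays 1 and 2, which share the fit, carry version 10.7.3.1 and 0 saturated probes. The processed intensity is background-subtracted and detrended within an array, per the file headers. A deposited table of the authors' log2 values followed the log2 processed signal of the same array at r = 0.970 to 0.996; column medians were 7.54 to 7.65, which gives its scale and direction. The sources used here do not name its normalization, and 74 values were missing. It served as an alternative.

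Control spots (536 of 15744) and outlier spots (2.79% to 5.23%) were left out, and saturated spots kept (13 to 48 probes per array). A probe's log2 spot values were averaged and the array's 75th percentile subtracted. Well above background means that this mark was set for a share of 0.5 or more of the spots used. The number of arrays limits the precision. The 2 nearly identical 2-day arrays were averaged before every fit except the alternative that kept them apart. Two-sided tests were run in R 4.3.3 with lmFit, contrasts.fit and eBayes of limma 3.58.1, with 2, 4 and 8 days in 1 fit without covariates and Benjamini-Hochberg adjustment over the 859 probes at a threshold of 0.05. The scripts were tested on simulated data. Per the labels' protocols the replicates were biological.

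The probes, classes and comparisons were chosen with earlier results of these data known. At most 2 probes per direction were named, by smallest unadjusted p. Probes called in the fit of the 2 groups alone, measured on every array of 1 group and none of the other, most variable within a group, or most like Contig51 over 11 samples were also named. Others are said to be chosen after seeing values. Alternatives were quantile normalization, median centring, the authors' values, background correction by normexp (offset 50) on median signals, other filters on dim probes, arrays 2 and 4 kept apart, the 2 groups alone, array weights, replicate number or scan day as a block, and leaving out each sample.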

Additional observations from a re-analysis of the deposited data

Results flagged for a closer look

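Of 24 values examined by group for a sample far from the others, 1 stood out. The number of probes well above background was 669 on 8-day array 3, against 902 to 919 on the other 3 arrays of that time point. The gap to its nearest neighbour took up 0.932 of the range of the group, above Dixon's 95% critical value for 4 samples. Chance alone flags about 1 in 20 groups. Without this array the count of calls between 8 and 2 days was again 0.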

How the results depend on the processing

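The count of 0 calls between 8 and 2 days held in 21 of 24 alternatives, all 11 that left out a sample among them (0 to 0 calls). It was 5 with the 2-day and 8-day groups alone, 1 with no filter on dim probes, and 164 with array weights (48 higher, 116 lower), where only 32 of the calls had groups without overlap. The array weights were 0.311 for the averaged 2-day pair and 0.334 for 8-day replicate 3, and 0.399 and 0.427 for 4-day replicates 1 and 2, against 1.01 to 3.07 for the other 7 samples. The fit of the 2 groups alone gave 0 to 8 calls when a sample was left out, an alternative chosen after seeing the data. The labels do not say whether numbers shared between replicates pair the samples. The correlation of same-numbered deviations between 2 and 8 days was −0.0984 to 0.591 (4 pairs). Differently numbered deviations were correlated at −0.691 to 0.476. These few overlapping ranges do not settle whether the samples were paired. With the replicate number as a block the count was 0. With scan day as a random block it was also 0 (correlation within days 0.367). Slide as a random block was not run, since once the pair was averaged too few slides held more than 1 sample.

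The median difference over all probes stayed below 0 when a sample was left out, at −0.30 to −0.06. The median SD at 2 days was 0.215 to 0.637 and at 8 days 0.372 to 0.540 when a sample was left out. At 8 days it was 0.722 with median centring, 0.626 with no filter, 0.634 with quantile normalization and 0.647 with the authors' values. The 2-day values in these settings were 0.520, 0.624, 0.467 and 0.444, so the order of the time points turned round in each; the cause was not tested. For the 15 named probes whose difference was given and tested, 0 differences changed sign under any alternative. Several alternatives left the difference itself as it was: the 2 groups alone, other filters, scan day as a block and leaving out a 4-day sample. Median centring moved it by the same amount for every probe. The probes were also named by their values in these data, so the kept signs are no independent support. Of the 359 values of these probes under an alternative 15 passed the test, each in the fit of the 2 groups alone or with array weights. Contig51 ranged from 3.76 to 5.45, Contig135 from 2.12 to 2.94, Ealb_Met_P7_C5_SP6_2090632 from 0.88 to 4.15, Ealb_Met_P3_F12_SP6_2090417 from −4.41 to −2.05, Ealb_Met_P4_B1_SP6_2090421 from −2.13 to −1.13, P4_5D_T7_1329751 from −2.01 to −1.10 (−1.11 with array weights) and P5_A4_T7_1329813 from 1.14 to 2.52. Signal over background limits dim probes, most of all on 8-day array 3.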
